A study of Mus musculus with 6 samples.

Results

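The genes described here encode nuclear subunits of respiratory complexes III and V, cytochrome c, 5 nuclear subunits of complex IV, and Atp5s, a factor of complex V. They were taken by name, as the protein-coding mouse genes whose symbol starts with Uqcr or Atp5 together with Cyc1, Cycs, Cox5a, Cox5b, Cox6c, Cox7b and Cox7c, which gave 32 of the 49315 genes in the count table. Of these, 9 belong to complex III, 1 is cytochrome c, 5 belong to complex IV and 17, with the factor Atp5s among them, were counted under complex V. The 5 complex IV genes encode supernumerary subunits, and the catalytic core of that complex is encoded by the mitochondrial genome and lies outside the rule. Symbols were those of the GENCODE annotation of the mouse build GRCm38, in which Atp5a1, Atp5b and Atp5g1 are the genes now called Atp5f1a, Atp5f1b and Atp5mc1.

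Transcripts were counted by RNA sequencing in hearts of 3 mice with a knockout of Arrdc4 made by CRISPR-Cas9 and of 3 wild-type mice, all on the C57BL/6 background. Which part of the gene was targeted, the number of founder lines and the age, sex and litter of the mice were not given in the sources used here. Samples are labelled as heart tissue, with no sorting of cell types named. Nothing in the labels says whether the 3 hearts of a group came from separate litters, so the p-values measure only the spread between these samples, which may be technical. The comparison asks which transcripts differ in the heart when Arrdc4, an alpha-arrestin adaptor protein, is lost.

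Complex III takes electrons from ubiquinol and hands them to cytochrome c, which carries them to complex IV, where oxygen is reduced to water. Complexes III and IV pump protons out of the mitochondrial matrix, and complex V lets them return through a rotating c ring that drives ATP formation in its F1 head. Heart muscle is among the tissues richest in these complexes, and most of their subunits are made from nuclear genes and imported.

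The count totals ran from 31529317 to 41036626 in knockout hearts and from 29974501 to 37518160 in wild-type hearts, of which 21.8% to 27.7% fell on genes of the mitochondrial genome. Arrdc4 had 5, 1 and 2 counts in knockout hearts 1 to 3, against 349, 307 and 281 counts in wild-type hearts 1 to 3, and fell by 6.93 on the log2 scale (SE 0.45, adjusted p = 0.00226, edgeR quasi-likelihood test). It was the only gene of 14508 tested that passed the adjusted threshold of 0.05 in either direction (0.00689%), with 179 genes at an unadjusted p under 0.05. Knockout heart 2 and wild-type heart 3 stood apart from the other hearts: the chi-square per degree of freedom between their counts was 7.79, and every other pair of hearts gave 27 or more. Fold changes are therefore given with and without these hearts, and levels and ratios by heart. The summed level of 10 cardiomyocyte markers was 70650 to 81540 CPM (the count relative to a TMM-scaled library size) in knockout hearts and 73790 to 81640 CPM in wild-type hearts. The 5 skeletal muscle markers together reached at most 0.367 CPM in knockout hearts and 0.411 CPM in wild-type hearts, with Myh4 at 0 in all hearts. Reads of Y-linked genes summed to over 5 CPM in knockout heart 1 (165 CPM) and in wild-type hearts 1 and 2 (158 and 146 CPM). In the other hearts, knockout heart 2 and wild-type heart 3 among them, they summed to 1.11 to 2.06 CPM. By these reads both groups held hearts of both sexes, in unequal numbers.

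To show what the start regions of these genes hold, 4 stretches are printed from the RefSeq table for GRCm38.p6, each ending before the annotated start of the gene and read 5′ to 3′ on the gene's own strand. Capitals mark the match: the NRF1 core for Atp5h, an ETS motif for Atp5e, and a cAMP response element for Cycs. Atp5g1, whose fold change had the lowest value of the set, holds none of the motifs marked with capitals. Atp5h lies at chr11:115419963-115420169, Atp5e at chr2:174464106-174464351, Cycs at chr6:50566570-50566819 and Atp5g1 at chr11:96075671-96075881, all on the minus strand.
Atp5h: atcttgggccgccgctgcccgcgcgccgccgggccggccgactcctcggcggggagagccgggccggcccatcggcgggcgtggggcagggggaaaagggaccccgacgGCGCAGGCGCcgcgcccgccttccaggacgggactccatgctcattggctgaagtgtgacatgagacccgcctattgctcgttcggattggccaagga
Atp5e: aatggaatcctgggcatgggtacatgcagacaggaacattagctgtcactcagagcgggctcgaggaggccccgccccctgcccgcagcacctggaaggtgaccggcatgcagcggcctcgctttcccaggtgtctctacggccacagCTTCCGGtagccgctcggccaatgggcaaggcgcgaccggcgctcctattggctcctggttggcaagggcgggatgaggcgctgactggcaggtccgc
Cycs: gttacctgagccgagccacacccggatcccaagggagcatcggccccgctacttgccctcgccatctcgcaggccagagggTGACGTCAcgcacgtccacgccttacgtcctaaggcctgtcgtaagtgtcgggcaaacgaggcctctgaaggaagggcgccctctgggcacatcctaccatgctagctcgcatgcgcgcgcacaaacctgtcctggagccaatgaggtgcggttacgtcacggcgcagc
Atp5g1: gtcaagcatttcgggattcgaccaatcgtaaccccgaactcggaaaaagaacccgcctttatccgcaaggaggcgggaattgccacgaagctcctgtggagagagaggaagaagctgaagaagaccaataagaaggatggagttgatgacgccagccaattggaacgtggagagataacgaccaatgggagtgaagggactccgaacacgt

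Of the 32 genes, 25 had an entry in the promoter table, which spans 250 bases before to 50 bases after each RefSeq start. Uqcrc2, Cyc1, Uqcrb, Uqcrq, Cox6c, Atp5a1 and Atp5mpl were not matched. Motifs were searched on both strands as exact letters. The NRF1 core, the palindrome of nuclear respiratory factor 1 marked above for Atp5h with its middle base left free, was found in 7 of the 25 (28%), those of Atp5c1, Atp5g2, Atp5g3, Atp5h, Atp5k, Atp5o and Uqcrc1, beside 5.19% of 27025 genes. The ETS motif CCGGAAG, of the kind bound by GABP, was found in 7 of 25 (28%), those of Atp5e, Atp5h, Atp5j, Atp5k, Atp5l, Uqcr11 and Uqcrh, beside 9.93% of all genes, so that Atp5h and Atp5k held both. The YY1 motif AAGATGGCG was found for Atp5j and Atp5j2 (8% beside 1.64%), the cAMP response element TGACGTCA for Cycs and Uqcrfs1 (8% beside 2.03%) and the estrogen-related receptor motif TCAAGGTCA for Atp5g3 (4% beside 0.466%). More general promoter letters were nearer to or under the background: GGGCGG was in 32% beside 38.2%, CCAAT in 52% beside 41.1% and TATAAA in 4%, that of Atp5l, beside 15.7%. Matches of different motifs were allowed to overlap. The 7 genes with the NRF1 core had a median log2 fold change of -0.11 and the 18 matched genes without it one of -0.08, which is a description of genes chosen by name and carries no test.

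None of the 32 genes passed the test, in either direction, when knockout hearts were set against wild-type hearts, where 0.00689% of all genes did. All 32 were on the lower side, or 31 once each library's trend on transcript length was taken out, with log2 fold changes (knockout over wild type) from -0.16 for Atp5g1 to -0.02 for Cox6c and a median of -0.085. Over all 14508 genes tested the median was 0.0092 and 47.7% were negative. Standard errors ran from 0.16 to 0.50, unadjusted p from 0.513 for Uqcrc1 to 0.95 for Cox6c, and the adjusted p was 1 for each of the 32 genes in edgeR. For 26 of the 32 genes the 95% interval left out a 2-fold difference in either direction, beside 76.4% of all genes, and for 4 genes, Uqcrc1, Atp5a1, Atp5b and Atp5d, it left out a 1.5-fold difference, beside 39.7%. The 3 knockout hearts lay below the 3 wild-type hearts for 0 of the 32 genes, beside 1.9% of all genes, and above them for 0 of 32, beside 2.18%. In bulk heart tissue fewer cells of a type and less RNA per cell cannot be told apart. The sign of the median rested on single hearts: it was 0.08 without knockout heart 1, -0.45 without knockout heart 2, 0.03 without knockout heart 3, -0.16 without wild-type heart 1, -0.25 without wild-type heart 2 and 0.17 without wild-type heart 3. With a term for the hearts with Y-linked reads the median was -0.30. The number of genes on the lower side was 4 without knockout heart 1, 10 without knockout heart 3 and 4 without wild-type heart 3.

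**Figure D1:**
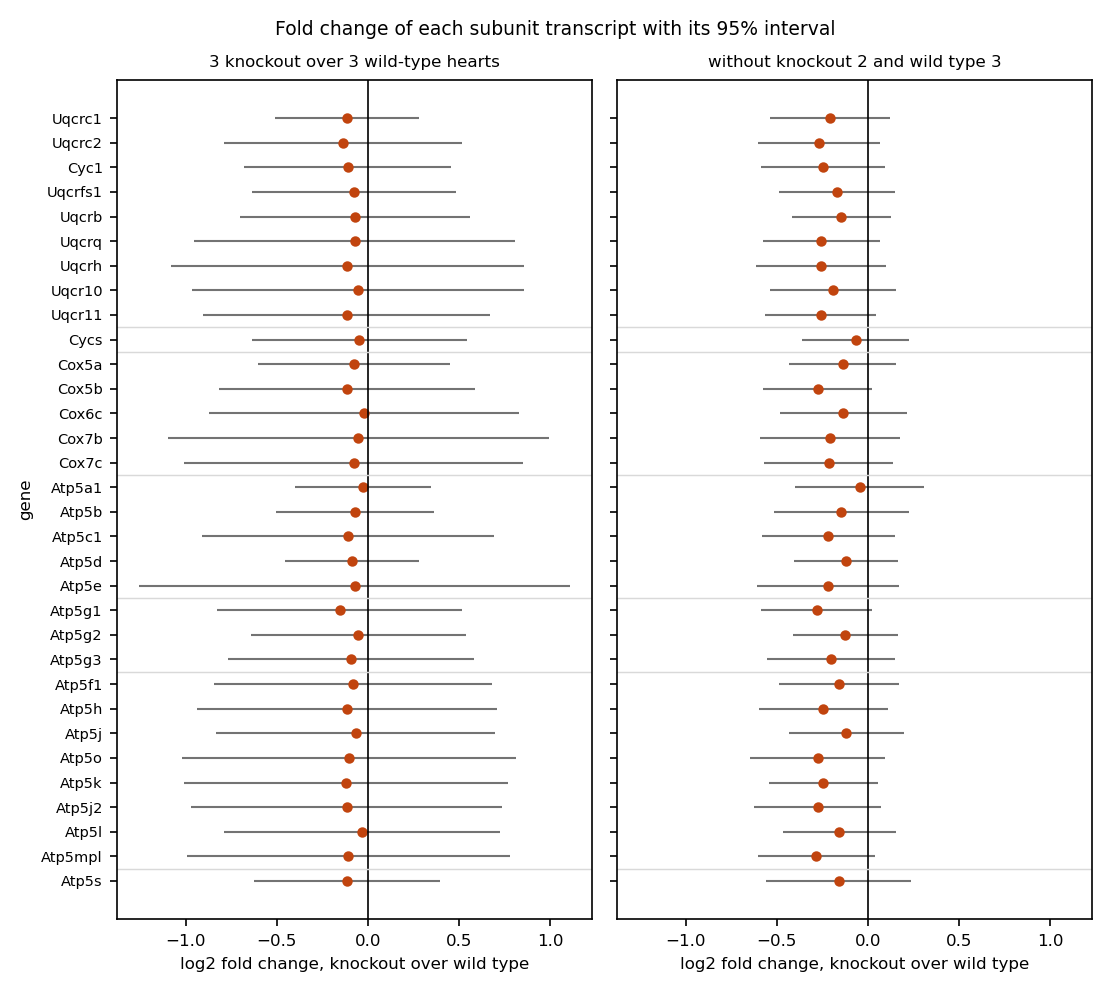
Log2 fold change of each of the 32 genes (x axis, knockout over wild type) with its 95% interval from edgeR, for all 6 hearts on the left and without knockout heart 2 and wild-type heart 3 on the right. Every point lies below 0 in both panels and every interval crosses 0, and the intervals are shorter on the right.

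With knockout heart 2 and wild-type heart 3 left out, the 32 genes were again all on the lower side, with a median of -0.21 and a range from -0.28 to -0.05, beside a median of -0.0013 and 50.3% negative over 14610 genes. Of the hearts left, knockout heart 1 and wild-type hearts 1 and 2 had Y-linked reads over 5 CPM, and knockout heart 3 had 1.9 CPM. Sex and genotype are thus partly confounded in this fit, and the part of sex in its values was not tested. The 32 genes had a median transcript length of 823.5 bases, beside 2791 over all genes tested with all hearts. Relative to their mean over all hearts, protein-coding genes near 861 bases had median log2 deviations of -0.25 and -0.24 in knockout hearts 1 and 3. These were -0.06 and -0.22 in wild-type hearts 1 and 2. No trend on length was taken out of this fit, and its part in these values was not tested. Again 0 of the 32 genes passed, beside 0.0137% of all genes, which was 1 lower gene, Arrdc4 (0.00684%), and 1 higher gene, Spp1 (0.00684%). The smallest p, that of Atp5g1, was 0.0631 unadjusted and 0.753 adjusted. Both remaining knockout hearts lay below both remaining wild-type hearts for 18 of the 32 genes, beside 18.5% of all genes, and above them for 0 of 32, beside 19.2%. They lay below for 30 of 37 complex I, 54 of 78 mitochondrial ribosomal protein and 9 of 12 other nuclear cytochrome oxidase genes as well. For assembly factors this was 12 of 28 and for cytosolic ribosomal proteins 4 of 77. In complex III the log2 fold changes in that fit were -0.21 for Uqcrc1 (SE 0.14), -0.27 for Uqcrc2 (SE 0.14), -0.25 for Cyc1 (SE 0.14), -0.17 for Uqcrfs1 (SE 0.13), -0.15 for Uqcrb, -0.26 for Uqcrq, -0.26 for Uqcrh (SE 0.15), -0.19 for Uqcr10 and -0.26 for Uqcr11. In complex IV they were -0.14 for Cox5a, -0.14 for Cox6c, -0.21 for Cox7b and -0.22 for Cox7c, beside the value of Cox5b given with that gene. The F1 head genes had -0.05 for Atp5a1 (SE 0.15), -0.15 for Atp5b (SE 0.15), -0.22 for Atp5c1 (SE 0.15), -0.12 for Atp5d (SE 0.12) and -0.22 for Atp5e (SE 0.16), and the c ring genes Atp5g2 and Atp5g3 had -0.12 and -0.20. The stalk and membrane genes had -0.16 for Atp5f1, -0.25 for Atp5h (SE 0.15), -0.12 for Atp5j, -0.28 for Atp5o (SE 0.16), -0.25 for Atp5k, -0.28 for Atp5j2, -0.16 for Atp5l and -0.28 for Atp5mpl, and Atp5s had -0.16. The SEs not given here lay between 0.11 and 0.17. The genes whose remaining hearts did not overlap, knockout below wild type, were 8 of 9 genes of complex III, 2 of 5 of complex IV, 8 of 17 of complex V and 0 of 1 for cytochrome c. The 95% interval then left out a 1.5-fold difference for 23 of the 32 genes, beside 48.9%, and a 2-fold difference for all 32, beside 75.9%. The hearts left out were picked by these same counts and were the highest for nearly all of these genes, so shorter intervals follow from the choice.

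The 32 genes shared one order of hearts, and that order did not follow genotype. Knockout heart 2 and wild-type heart 3 were the 2 highest hearts for 31 of the 32 genes, with Atp5a1 as the exception, beside 29.4% of all genes. Knockout heart 2 was the highest for 22 genes and wild-type heart 3 for 9. Knockout heart 1 was the lowest for 31 genes, with Cycs as the exception, beside 19.3% of all genes. The median log2 deviation of the 32 genes from their mean over the 6 hearts was -0.42, 0.54 and -0.28 in knockout hearts 1 to 3, against -0.06, -0.27 and 0.52 in wild-type hearts 1 to 3, and over all genes these medians lay between -0.01 and 0.02. Together the 32 genes took 2.68%, 3.97% and 3.05% of the counts in knockout hearts 1 to 3 and 3.37%, 2.93% and 3.95% in wild-type hearts 1 to 3. The highest heart exceeded the lowest by a median of 1.95-fold over the 32 genes, from 1.13-fold for Atp5a1 to 2.90-fold for Atp5e, and by a median of 1.62-fold over all genes.

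**Figure D2:**
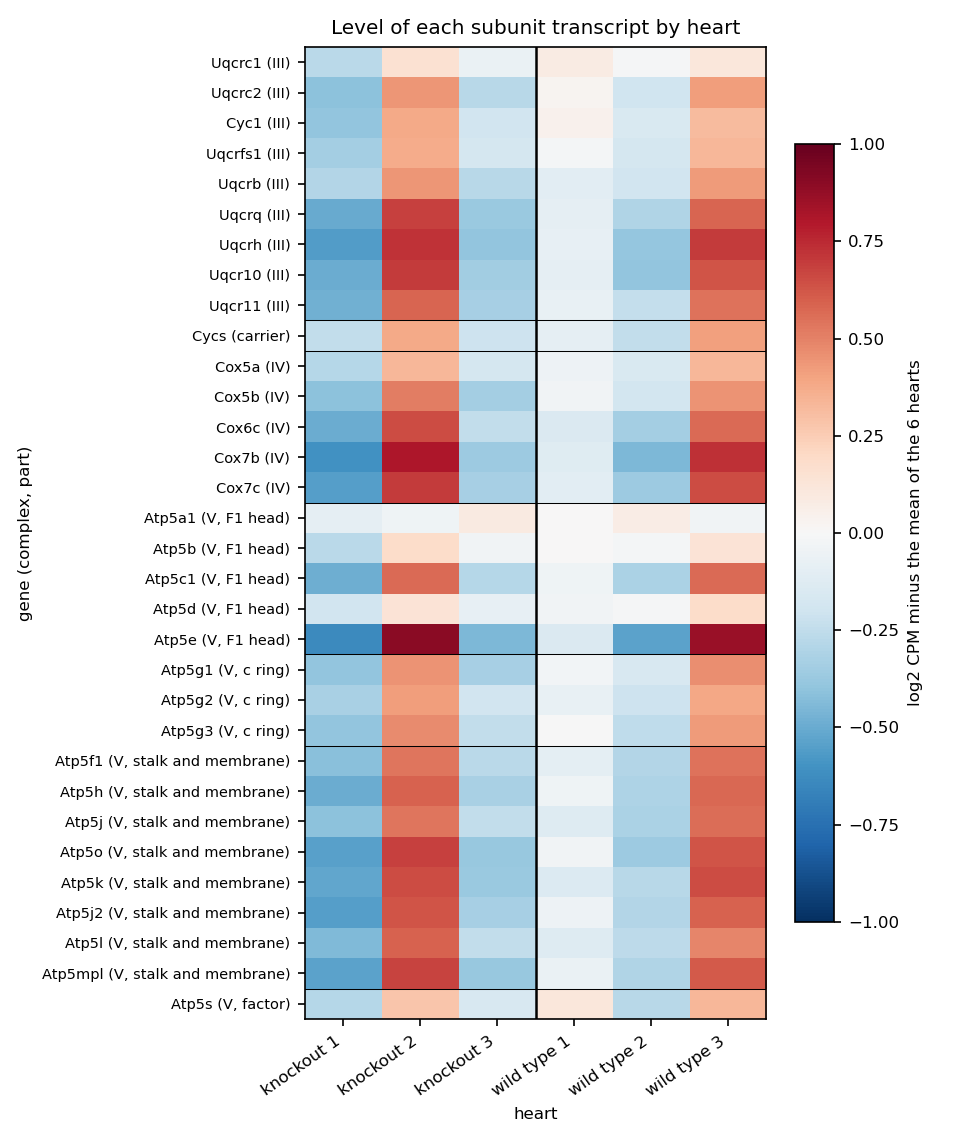
Log2 CPM of each of the 32 genes in each heart minus that gene's mean over the 6 hearts (color scale), with genes in rows by complex and hearts in columns, knockout left of wild type. Knockout heart 2 and wild-type heart 3 are high for nearly every gene, Atp5a1 and Atp5d are pale, and Atp5e and Cox7b are the darkest rows.

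The core proteins Uqcrc1 and Uqcrc2 carry the matrix side of complex III. Uqcrc1 (ENSMUSG00000025651, chromosome 9, 108936633 to 108949623, 13 exons) had 1265, 1688 and 1452 CPM in knockout hearts 1 to 3, against 1609, 1514 and 1649 CPM in wild-type hearts 1 to 3. The groups overlapped, knockout heart 1 was the lowest and knockout heart 2 the highest. Means were 1468 ± 212 CPM and 1591 ± 69.3 CPM (SD, n = 3 each), the log2 fold change was -0.12 (SE 0.17, 95% interval -0.51 to 0.28), and this was the smallest p of the 32 genes. Uqcrc2 (ENSMUSG00000030884, chromosome 7) had 873, 1574 and 955 CPM in knockout hearts 1 to 3, against 1181, 1007 and 1550 CPM in wild-type hearts 1 to 3. Knockout heart 2 and wild-type heart 3 were both above the other 4 hearts, the groups overlapped, and the log2 fold change was -0.14 (SE 0.28).

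Cyc1, the cytochrome c1 heme protein, and Uqcrfs1, the Rieske iron-sulfur protein, carry electrons within complex III. Cyc1 averaged 959 ± 278 CPM in knockout hearts and 1036 ± 170 CPM in wild-type hearts (SD, n = 3 each; log2 fold change -0.11, SE 0.24). Uqcrfs1 averaged 932 ± 252 CPM in knockout hearts and 982 ± 180 CPM in wild-type hearts (SD, n = 3 each; log2 fold change -0.07, SE 0.24). For both genes the groups overlapped, and knockout heart 2 was the highest and knockout heart 1 the lowest.

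The 5 supernumerary subunits of complex III, Uqcrb, Uqcrq, Uqcrh, Uqcr10 and Uqcr11, surround the catalytic subunits. Uqcrh, the hinge protein at the docking side of cytochrome c (ENSMUSG00000063882, chromosome 4), had the highest level per length of complex III, a mean of 1295 CPM per kilobase. It had 449, 1090 and 503 CPM in knockout hearts 1 to 3, against 626, 507 and 1076 CPM in wild-type hearts 1 to 3. Both groups held 1 heart above 1000 CPM and the others between 449 and 626 CPM, so the log2 fold change of -0.11 carried an SE of 0.41. Uqcr10 had 265, 608 and 294 CPM in knockout hearts 1 to 3, against 350, 284 and 576 CPM in wild-type hearts 1 to 3 (log2 fold change -0.05, SE 0.39). It showed the same split of 1 high heart in each group. The remaining Uqcrb, Uqcrq and Uqcr11 had log2 fold changes of -0.07 (SE 0.27), -0.07 (SE 0.38) and -0.12 (SE 0.34). The 5 small subunits spanned a median of 2.29-fold between the highest and lowest heart, the 2 core proteins one of 1.57-fold. The ratio of Uqcrh to Uqcrc1 per kilobase was 1.07, 1.95 and 1.05 in knockout hearts 1 to 3 and 1.18, 1.01 and 1.97 in wild-type hearts 1 to 3, with 1 heart of each group near 2 and the others near 1. Their transcripts have 547 and 1653 bases. Protein-coding genes near 609 bases had median log2 deviations of 0.46 in both knockout heart 2 and wild-type heart 3. Near 1722 bases these were 0.12 and 0.11. The part of transcript length in this ratio was not tested.

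Cytochrome c, encoded by Cycs (ENSMUSG00000063694, chromosome 6, 50562563 to 50566538, 3 exons), shuttles between complexes III and IV and is known for its part in apoptosis when released from mitochondria. It had 500, 772 and 514 CPM in knockout hearts 1 to 3, against 557, 500 and 790 CPM in wild-type hearts 1 to 3. Knockout heart 1 and wild-type heart 2 shared the lowest level, and wild-type heart 3 was the highest. Its log2 fold change was -0.05 (SE 0.25) over all hearts and -0.07 (SE 0.12) without knockout heart 2 and wild-type heart 3, the value nearest to 0 after Atp5a1 in that fit. With a transcript of 3123 bases Cycs was the second lowest per length, at 194 CPM per kilobase.

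Among the complex IV genes, Cox5a and Cox5b encode matrix-side subunits, and Cox6c, Cox7b and Cox7c encode small membrane subunits. With its principal transcript of 503 bases, Cox6c (ENSMUSG00000014313, chromosome 15) was the highest of the 5 per length, at a mean of 1757 CPM per kilobase. That level would be lower with its longer principal transcript of 738 bases, and its place among the 5 was not computed for that length. Cox6c had 597, 1324 and 708 CPM in knockout hearts 1 to 3, against 761, 665 and 1247 CPM in wild-type hearts 1 to 3. The groups overlapped almost entirely, and the log2 fold change of -0.02 (SE 0.36) was the nearest to 0 of the 32 genes. Cox5b (ENSMUSG00000061518, chromosome 1) had 537, 1021 and 565 CPM in knockout hearts 1 to 3, against 699, 628 and 977 CPM in wild-type hearts 1 to 3. Knockout hearts 1 and 3 were the 2 lowest and knockout heart 2 was the highest. Its log2 fold change was -0.12 (SE 0.30) over all hearts and -0.28 (SE 0.12, unadjusted p = 0.0637, adjusted p = 0.753, edgeR) without knockout heart 2 and wild-type heart 3. Cox7b, on chromosome X, had 454, 1206 and 537 CPM in knockout hearts 1 to 3, against 634, 504 and 1141 CPM in wild-type hearts 1 to 3 (log2 fold change -0.05, SE 0.45), and was chosen for its spread of 2.66-fold after its values were seen. Cox5a and Cox7c had log2 fold changes of -0.08 (SE 0.22) and -0.08 (SE 0.40).

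The F1 head of complex V is built from alpha (Atp5a1), beta (Atp5b), gamma (Atp5c1), delta (Atp5d) and epsilon (Atp5e) subunits, of which alpha and beta alternate in the ring that holds the catalytic sites and gamma is the rotating shaft. Atp5b (ENSMUSG00000025393, chromosome 10, 128083273 to 128090391, 10 exons) had 4745, 6478 and 5586 CPM in knockout hearts 1 to 3, against 5734, 5628 and 6290 CPM in wild-type hearts 1 to 3. Per length it was the highest of the 32 genes in all 6 hearts, with a mean of 2998 CPM per kilobase, and ranked 24 among the 14508 genes tested. The groups overlapped and the log2 fold change was -0.07 (SE 0.19, 95% interval -0.51 to 0.36). Atp5a1 (ENSMUSG00000025428) had 4249, 4384 and 4820 CPM in knockout hearts 1 to 3, against 4531, 4769 and 4401 CPM in wild-type hearts 1 to 3. It was the 1 gene of the 32 that did not put knockout heart 2 and wild-type heart 3 on top, with knockout heart 3 the highest. Its log2 fold change was -0.03 (SE 0.16, 95% interval -0.40 to 0.35).

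Atp5d had 468, 586 and 506 CPM in knockout hearts 1 to 3, against 522, 529 and 606 CPM in wild-type hearts 1 to 3 (log2 fold change -0.09, SE 0.16). Atp5c1 had 897, 1856 and 1032 CPM in knockout hearts 1 to 3, against 1216, 1011 and 1858 CPM in wild-type hearts 1 to 3 (log2 fold change -0.11, SE 0.34). Atp5e, chosen after its values were seen for the widest spread of the 32 genes, had 334, 969 and 380 CPM in knockout hearts 1 to 3, against 468, 357 and 945 CPM in wild-type hearts 1 to 3. The groups of all 3 genes overlapped, and 1 heart of each group held a level of Atp5e about as high as the other group's highest, giving a log2 fold change of -0.07 with an SE of 0.50. These 5 subunits meet in 1 head in fixed numbers, yet their transcripts did not keep a fixed ratio across hearts. Atp5e over Atp5a1 per kilobase was 0.461, 1.30 and 0.462 in knockout hearts 1 to 3, against 0.606, 0.440 and 1.26 in wild-type hearts 1 to 3. The transcripts of Atp5e and Atp5a1 have 421 and 2471 bases. Protein-coding genes near 430 bases had median log2 deviations of 0.53 in knockout heart 2 and 0.54 in wild-type heart 3. Near 2435 bases these were 0.02 and 0.01. The part of transcript length in this ratio was not tested. Atp5b over Atp5a1 varied less, at 1.44, 1.91 and 1.5 in knockout hearts 1 to 3 and 1.63, 1.52 and 1.84 in wild-type hearts 1 to 3.

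The c ring that turns in the membrane is made of 1 mature protein encoded by 3 genes, Atp5g1, Atp5g2 and Atp5g3, which differ in their import sequences. Atp5g1 (ENSMUSG00000006057, chromosome 11, 96068852 to 96075670, 5 exons) had 995, 1788 and 1038 CPM in knockout hearts 1 to 3, against 1283, 1173 and 1800 CPM in wild-type hearts 1 to 3. Knockout hearts 1 and 3 were the 2 lowest and wild-type heart 3 the highest. Its log2 fold change of -0.16 (SE 0.29, 95% interval -0.83 to 0.52) was the lowest of the 32 genes, and it was -0.28 (SE 0.13, unadjusted p = 0.0631, adjusted p = 0.753, edgeR) without knockout heart 2 and wild-type heart 3. Atp5g3 (ENSMUSG00000018770, chromosome 2) had 1193, 2172 and 1323 CPM in knockout hearts 1 to 3, against 1566, 1314 and 2113 CPM in wild-type hearts 1 to 3 (log2 fold change -0.09, SE 0.29). Atp5g2 (ENSMUSG00000062683, chromosome 15) had 152, 254 and 167 CPM in knockout hearts 1 to 3, against 180, 164 and 248.9 CPM in wild-type hearts 1 to 3 (log2 fold change -0.05, SE 0.25). For both of these genes knockout heart 2 was the highest, wild-type heart 3 came next and the groups overlapped.

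The share of each gene in the summed c subunit transcript per length depends on which Atp5g1 transcript is counted. With its principal transcript of 596 bases, Atp5g1 held 46.5% ± 0.839 of the summed level in knockout hearts and 47.8% ± 0.967 in wild-type hearts (SD, n = 3 each; difference -1.29 percentage points, p = 0.3, exact two-sided permutation test). Atp5g2 held 5.75% ± 0.279 in knockout hearts and 5.44% ± 0.114 in wild-type hearts (SD, n = 3 each; difference 0.306 percentage points, p = 0.2 by the same exact test). Atp5g3 held 47.7% ± 0.701 in knockout hearts and 46.7% ± 1.07 in wild-type hearts (SD, n = 3 each; difference 0.987 percentage points, p = 0.3 by the same exact test). Adjusted over the 3 shares each exact p was 0.3, and 3 against 3 hearts cannot give a p below 0.1. Over the 6 hearts the share of Atp5g1 lay between 45.6% and 48.8% and that of Atp5g3 between 45.6% and 48.5%, while the levels of the 3 genes spanned 1.67-fold to 1.82-fold. Without knockout heart 2 and wild-type heart 3 the differences were -1.52, 0.436 and 1.09 percentage points for Atp5g1, Atp5g2 and Atp5g3. Another principal transcript annotated for Atp5g1 has 4715 bases, and with the longest principal transcript of each gene, chosen as an alternative after the data were seen, the shares were 10.01% ± 0.301 in knockout and 10.5% ± 0.362 in wild-type hearts for Atp5g1, 9.78% ± 0.413 in knockout and 9.45% ± 0.33 in wild-type hearts for Atp5g2, and 80.2% ± 0.396 in knockout and 80.1% ± 0.686 in wild-type hearts for Atp5g3 (SD, n = 3 each). The files do not say which transcript the counts came from.

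The stalk and membrane subunits of complex V hold the F1 head against the ring and form the dimer contacts. Atp5h, the d subunit of the outer stalk (ENSMUSG00000034566, chromosome 11), was the highest of these 8 per length at 1630 CPM per kilobase. It had 689, 1467 and 778 CPM in knockout hearts 1 to 3, against 946, 784 and 1447 CPM in wild-type hearts 1 to 3 (log2 fold change -0.11, SE 0.35). Knockout heart 2 and wild-type heart 3 were again above the rest, and the groups overlapped. Atp5k, the e subunit of the membrane part, had 292, 658 and 324 CPM in knockout hearts 1 to 3, against 380, 346 and 659 CPM in wild-type hearts 1 to 3 (log2 fold change -0.12, SE 0.38). Atp5l, the g subunit beside it, had 348, 708 and 397 CPM in knockout hearts 1 to 3, against 432, 392 and 662 CPM in wild-type hearts 1 to 3 (log2 fold change -0.03, SE 0.32). For Atp5k knockout hearts 1 and 3 were the 2 lowest, and for Atp5l wild-type heart 2 lay between them. The b subunit Atp5f1, the coupling factor Atp5j, the oligomycin sensitivity protein Atp5o, the f subunit Atp5j2 and the small proteolipid Atp5mpl had log2 fold changes from -0.12 (Atp5j2, SE 0.36) to -0.07 (Atp5j, SE 0.33). Atp5j shares its locus with Gabpa on the opposite strand, whose counts were 7.95% of its own, and since no strand setting of the counting is stated, reads of these 2 genes cannot be told apart where they overlap.

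Atp5s, annotated as factor B of the synthase and called Dmac2l in the RefSeq table, was the lowest of the 32 genes per length in all 6 hearts, at 13.8 CPM per kilobase. It had 16.6, 24.5 and 18.0 CPM in knockout hearts 1 to 3, against 21.8, 16.7 and 25.5 CPM in wild-type hearts 1 to 3 (log2 fold change -0.11, SE 0.22). The groups overlapped. The ATPase inhibitor Atpif1, which blocks ATP hydrolysis by complex V, has the name Atp5if1 in newer tables and falls outside the rule. It had 65.1, 132 and 74.0 CPM in knockout hearts 1 to 3, against 110, 84.9 and 133 CPM in wild-type hearts 1 to 3. Knockout hearts 1 and 3 were the 2 lowest, and its log2 fold change of -0.27 (SE 0.30, adjusted p = 1, edgeR) lay below that of each of the 32 genes; it was -0.49 (SE 0.16) without knockout heart 2 and wild-type heart 3. The membrane subunit Usmg5, called Atp5md in the RefSeq table, had a log2 fold change of -0.11 (SE 0.45), and Dmac2, which carries Atp5sl as an older name, one of -0.15 (SE 0.15). Without the same hearts these were -0.29 (SE 0.14) for Usmg5 and -0.18 (SE 0.11) for Dmac2.

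**Figure D3:**
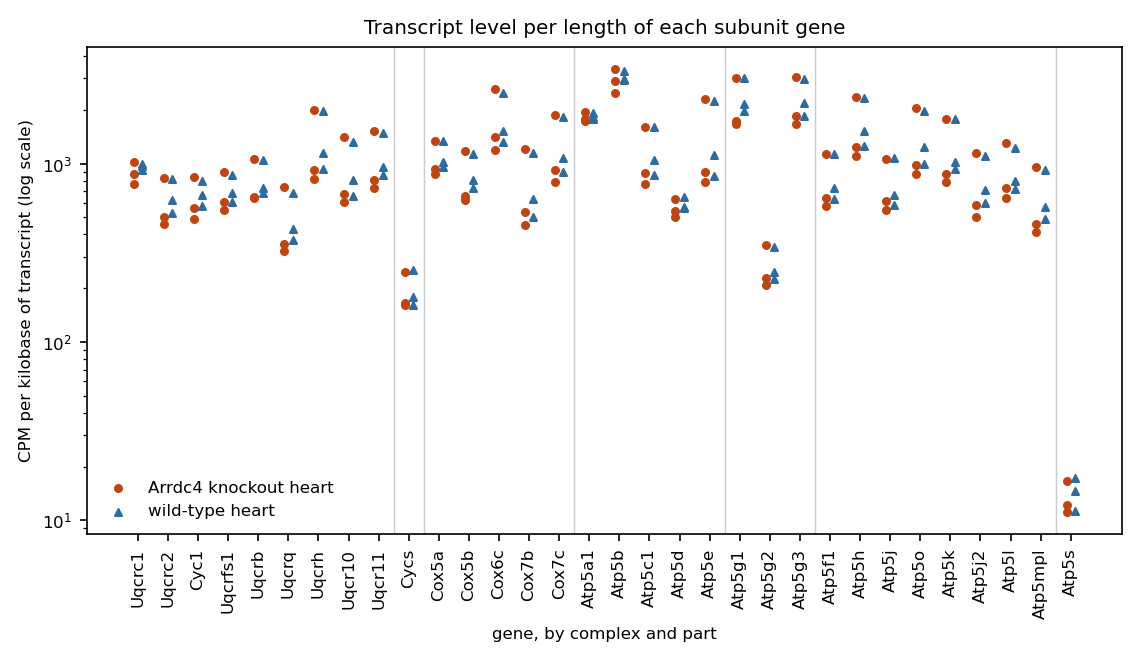
Level per length of each of the 32 genes (y axis, CPM per kilobase of transcript, log scale) in each heart, knockout hearts as circles left of wild-type hearts as triangles, with genes grouped by complex along the x axis. Atp5b is at the top and Atp5s far below the others, and for most genes 1 heart of each group lies above the other 2.

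The order of levels per length was much the same from heart to heart, with Spearman's rho between hearts of 0.896 to 0.997 over the 32 genes and 15 pairs of hearts. After Atp5b came Atp5g3 at 2260, Atp5g1 at 2259, Atp5a1 at 1832 and Cox6c at 1757 CPM per kilobase, each averaged over 6 hearts. The level of Atp5g1 would be 285.5 CPM per kilobase with its longer principal transcript. With the shorter, Atp5g3 and Atp5g1 held ranks 2 to 4 in every heart and did not differ beyond their spread, while Atp5a1 moved between ranks 2 and 10. At the low end Uqcrq stood at 483, Atp5g2 at 266, Cycs at 194 and Atp5s at 13.8 CPM per kilobase, and Atp5g2, Cycs and Atp5s kept ranks 30, 31 and 32 in every heart. Between these ends neighbours in the order held overlapping ranks. Against the 14508 genes tested, 31 of the 32 ranked between 24 and 339 per length, and Atp5s ranked 3319. Cox6c, Atp5d and Atp5mpl also have longer principal transcripts, of 738, 1410 and 612 bases beside the 503, 931 and 366 bases used. The order with those lengths was not computed.

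How far a gene varied between hearts went with the length of its transcript. For the 11 genes with a transcript of up to 600 bases the highest heart exceeded the lowest by a median of 2.26-fold, for the 9 genes above that and up to 1000 bases by 1.90-fold and for the 12 longer genes by 1.67-fold. Spearman's rho between length and this spread was -0.57 across the 32 genes and -0.033 across 13112 protein-coding genes, both across genes that share the same 6 libraries and are not independent. Each library also had a slope on transcript length over the tested genes with a known length. It was fitted to the deviation of log2 CPM from each gene's mean over the 6 hearts. Per doubling of length it was 0.121, -0.176 and 0.118 in knockout hearts 1 to 3 and 0.00695, 0.109 and -0.178 in wild-type hearts 1 to 3, so that short transcripts were relatively high in knockout heart 2 and wild-type heart 3. Protein-coding genes with transcripts near 430 bases had median deviations of -0.37, 0.53 and -0.32 in knockout hearts 1 to 3 and of -0.13, -0.33 and 0.54 in wild-type hearts 1 to 3. The genes of up to 600 bases among the 32 had -0.49, 0.66 and -0.33 in knockout hearts 1 to 3, against -0.11, -0.30 and 0.61 in wild-type hearts 1 to 3. With each library's trend on length taken out, the median log2 fold change of the 32 genes was -0.07, 31 of 32 were negative beside 54.8% of all genes, Cox6c was at 0.01 and 0 passed the test beside 0.00689% of all genes. The part of the length trend in the shared order of hearts was otherwise not tested.

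**Figure D4:**
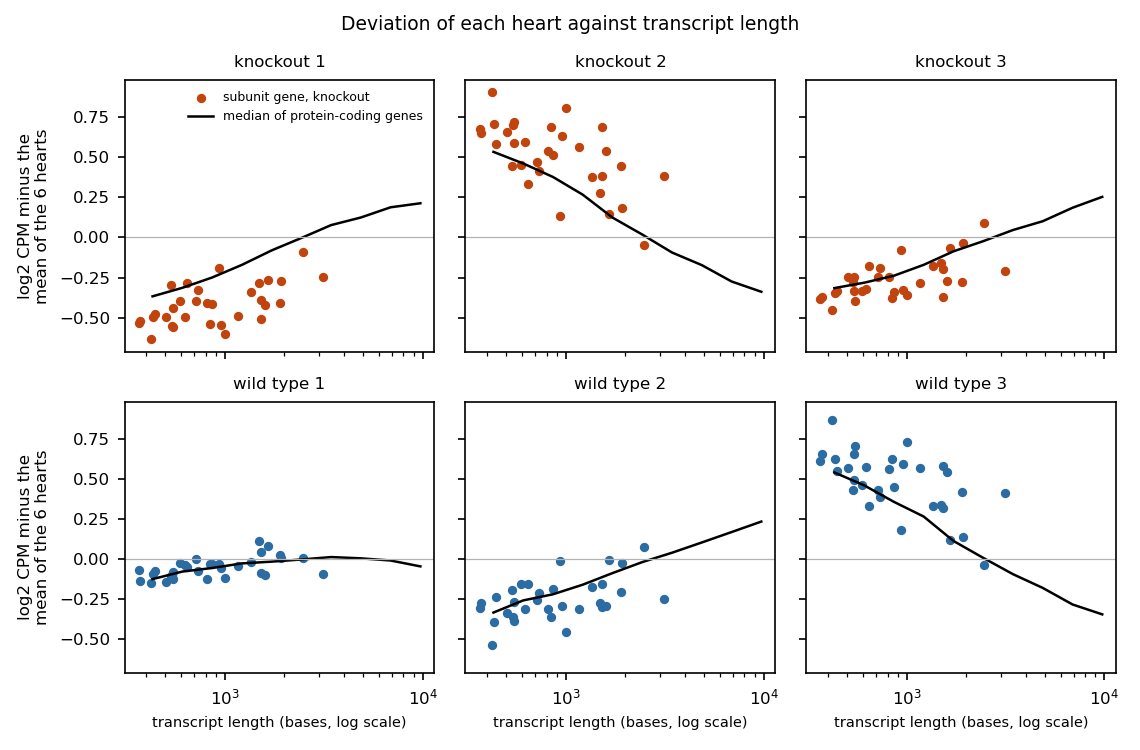
Deviation of log2 CPM from the mean of the 6 hearts (y axis) against transcript length in bases (x axis, log scale), with 1 panel per heart, knockout above wild type, points for the 32 genes and a line for the median of protein-coding genes in length bins. The line falls with length in knockout heart 2 and wild-type heart 3, rises in knockout hearts 1 and 3 and wild-type heart 2, and is nearly flat in wild-type heart 1.

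Other measures also differed between hearts, some high and some low in knockout heart 2 and wild-type heart 3. Cytosolic ribosomal protein transcripts summed to 15060, 27540 and 15480 CPM in knockout hearts 1 to 3, against 17110, 14490 and 29160 CPM in wild-type hearts 1 to 3. Fibroblast markers summed to 2045, 853 and 1800 CPM in knockout hearts 1 to 3 and to 1242, 1660 and 1087 CPM in wild-type hearts 1 to 3, the lowest in the hearts where the 32 genes were highest. Endothelial markers summed to 658, 310 and 502 CPM in knockout hearts 1 to 3, against 428, 567 and 321 CPM in wild-type hearts 1 to 3, and macrophage markers to 116, 30.4 and 65.5 CPM in knockout hearts 1 to 3, against 60.5, 80.7 and 37.9 CPM in wild-type hearts 1 to 3. Knockout heart 1, the lowest heart for 31 of the 32 genes, was the highest for 5 of 7 fibroblast, 4 of 6 endothelial, 5 of 5 macrophage and 4 of 4 epicardial markers and the lowest for 6 of 10 cardiomyocyte markers. The same heart was the highest for 4 of 5 red blood cell markers and for 2 of 5 smooth muscle and pericyte markers. Smooth muscle and pericyte markers summed to 736, 695 and 635 CPM in knockout hearts 1 to 3, against 658, 556 and 811 CPM in wild-type hearts 1 to 3, and red blood cell markers to 764, 800.4 and 453 CPM in knockout hearts 1 to 3, against 525, 674 and 759 CPM in wild-type hearts 1 to 3; neither followed the order of the 32 genes. The 10 cardiomyocyte markers were divided. For 6 of them knockout heart 2 and wild-type heart 3 were the 2 highest hearts, as for the ventricular light chain Myl2 with 5054, 11850 and 6751 CPM in knockout hearts 1 to 3, against 7438, 6088 and 11700 CPM in wild-type hearts 1 to 3. They were the 2 lowest for 3 of them, among them the myosin heavy chain Myh6 with 22900, 9167 and 29520 CPM in knockout hearts 1 to 3, against 17170, 26860 and 10040 CPM in wild-type hearts 1 to 3. The part of these measures in the values of the 32 genes was not tested.

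The mitochondrial genome encodes a few further subunits of these complexes. Cytochrome b (mt-Cytb) had a log2 fold change of 0.02 (SE 0.22) and the oxidase subunit mt-Co1 one of 0.00 (SE 0.26), both with an adjusted p of 1 in edgeR. The ratio of mt-Cytb to the summed nuclear complex III genes, both per kilobase, was 6.42, 4.04 and 5.03 in knockout hearts 1 to 3, against 4.23, 5.91 and 3.89 in wild-type hearts 1 to 3. The ratio for complex IV, which is nearly all mt-Co1, was 15.9, 9.83 and 11.6 in knockout hearts 1 to 3, against 11.1, 14.6 and 9.41 in wild-type hearts 1 to 3. In both complexes knockout heart 1 was the highest, the groups overlapped, and means were 5.16 ± 1.2 in knockout hearts against 4.67 ± 1.08 in wild-type hearts for complex III and 12.4 ± 3.14 against 11.7 ± 2.67 for complex IV (SD, n = 3 each). The other mitochondrial subunits are uncertain. mt-Co2, mt-Co3, mt-Atp6 and mt-Atp8 held 123 to 965 counts per library where mt-Co1 held 2725447 to 4129319, and annotated copies of mt-Co2, mt-Co3 and mt-Atp6 on chromosome 1, Gm28661, Gm28437 and Gm10925, match them with 0 differences over 681, 783 and 678 bases and held 893 to 2337 counts. No source used here says how reads that match both were counted, so no ratio is given for complex V. The log2 fold changes as counted were 0.08 (SE 0.18) for mt-Atp6 and -0.08 (SE 0.20) for mt-Atp8.

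Genes that work with these subunits lay mostly on the same side, with none past the test in any list (0.00689% over all genes). Of 28 tested assembly factors of complexes III, IV and V, 26 had a negative log2 fold change, beside 47.7% of all genes, with a median of -0.09. The smallest p were those of Taco1, a translational activator of mt-Co1 (-0.18, SE 0.14), and Bcs1l, which inserts the Rieske protein (-0.16, SE 0.13). The other nuclear cytochrome oxidase subunits were negative in 11 of 12 (median -0.11), with Cox6b2 at -0.33 (SE 0.41) from a mean of 0.880 CPM in knockout and 1.09 CPM in wild-type hearts, and Cox7a2l at -0.12 (SE 0.22). The 7 tested genes of ATP and phosphate exchange were all negative (median -0.11), among them the adenine nucleotide carrier Slc25a4 (-0.20, SE 0.25) and the mitochondrial creatine kinase Ckmt2 (-0.12, SE 0.16). Complex I genes were negative in 36 of 37 (median -0.10). The exception, Ndufa4l2, a relative of Ndufa4 that is not a fixed part of complex I, stood at 0.40 (SE 0.17, unadjusted p = 0.0502, adjusted p = 1, edgeR), and the next smallest p was that of Ndufa10 (-0.10, SE 0.14). Complex II was negative in 3 of 4 (Sdhd -0.13, SE 0.36; Sdhb -0.09, SE 0.24).

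Mitochondrial ribosomal proteins were negative in 75 of 78 (median -0.11), with Mrps2 at -0.22 (SE 0.13) and Mrps27 at -0.16 (SE 0.16). Cytosolic ribosomal proteins, which build the ribosomes outside mitochondria, were negative in 69 of 77 (median -0.06), with Rps4x at -0.11 (SE 0.23) and Rpl9 at -0.19 (SE 0.48). The regulators of nuclear respiratory genes were divided, with 11 of 19 negative and a median of -0.01. Yy1 stood at 0.13 (SE 0.11) and Pprc1, a coactivator of the PGC-1 family, at 0.22 (SE 0.25), the 2 smallest p of that list. Nrf1 was at 0.07 (SE 0.16), Gabpa at 0.03 (SE 0.17), Esrra at -0.03 (SE 0.26) and Ppargc1a at -0.02 (SE 0.15). Without knockout heart 2 and wild-type heart 3 the medians were -0.18 for assembly factors, -0.26 for the other oxidase subunits, -0.22 for complex I, -0.22 for mitochondrial ribosomal proteins, -0.15 for ATP and phosphate exchange, -0.06 for cytosolic ribosomal proteins and -0.04 for the regulators, again with none called. The negative counts were then 26 of 28 assembly factors, 11 of 12 other oxidase subunits, 36 of 37 complex I, 77 of 78 mitochondrial and 59 of 77 cytosolic ribosomal protein genes, 7 of 7 exchange genes, 3 of 4 complex II genes and 10 of 19 regulators. With all hearts and each library's trend on length taken out, 54.8% of all genes were negative. Cytosolic ribosomal proteins were then negative in 47 of 77 (median -0.02), other oxidase subunits in 9 of 12 and regulators in 13 of 19. Assembly factors were negative in 25 of 28, complex I in 35 of 37 and mitochondrial ribosomal proteins in 72 of 78. Exchange genes were negative in 7 of 7 and complex II in 3 of 4.

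**Figure D5:**
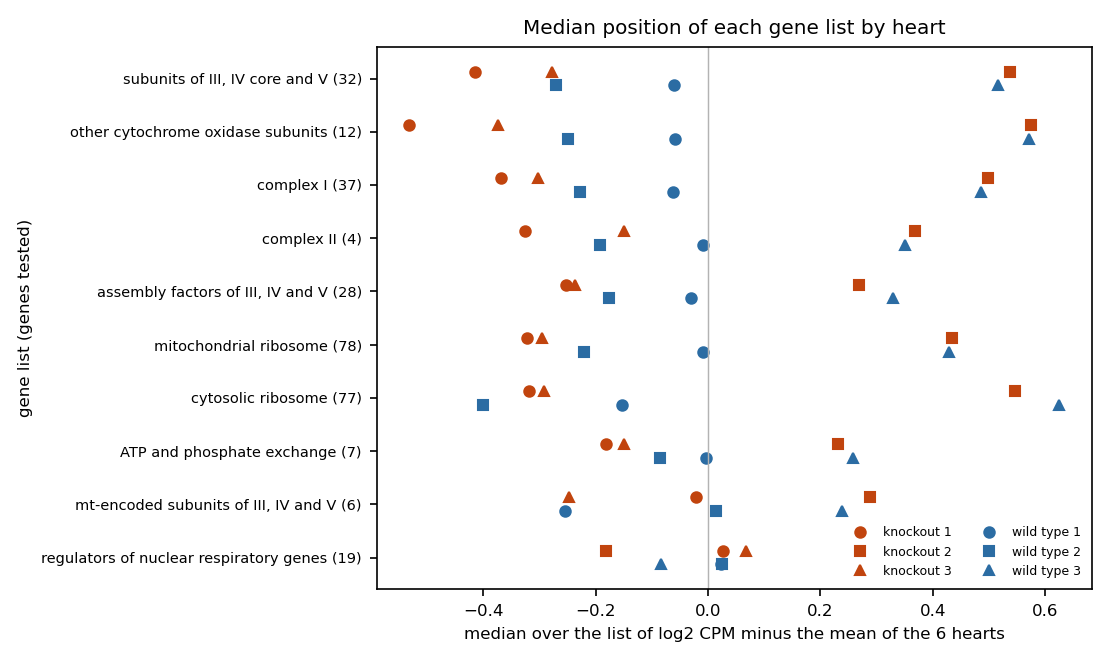
Median over each gene list of the deviation of log2 CPM from the mean of the 6 hearts (x axis), with lists down the y axis, the number of tested genes in brackets, and 1 symbol per heart, knockout hearts drawn above wild-type hearts. The 32 genes, complex I and both ribosomes put knockout heart 2 and wild-type heart 3 to the right, and the regulators put those hearts to the left. Median transcript length was 823.5 bases for the 32 genes and 3901 bases for the regulators.

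The medians of complex I genes were -0.37, 0.50 and -0.30 in knockout hearts 1 to 3 and -0.06, -0.23 and 0.49 in wild-type hearts 1 to 3, and those of cytosolic ribosomal proteins were -0.32, 0.55 and -0.29 in knockout hearts 1 to 3 and -0.15, -0.40 and 0.63 in wild-type hearts 1 to 3. Knockout heart 2 and wild-type heart 3 were the 2 highest hearts for 34 of 37 complex I genes, 75 of 78 mitochondrial and 77 of 77 cytosolic ribosomal protein genes, beside 29.4% of all genes. For the regulators this was 6 of 19, and their medians were 0.03, -0.18 and 0.07 in knockout hearts 1 to 3 and 0.02, 0.02 and -0.08 in wild-type hearts 1 to 3. The regulators had a median transcript length of 3901 bases, beside 823.5 for the 32 genes. Protein-coding genes near 3444 bases had median deviations of -0.09 in both knockout heart 2 and wild-type heart 3. Near 4871 bases these were -0.17 and -0.18. The part of length in the difference between these lists was not tested.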

How the data were processed

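RNA from heart tissue was purified with Qiagen columns and made into libraries with a NEBNext Ultra II kit, per the labels' protocols. The authors deposited 1 table of whole-number read counts per gene and heart, not normalized. The submitters' processing notes name STAR, featureCounts, Subread 1.5.2, DESeq2 and the build GRCm38.p6 and do not say what each did. How strand and multi-mapping reads were treated, and with which annotation, was not given in the sources used here. Groups and replicate numbers came from the sample titles and genotype labels, and columns were matched by name.

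Identifiers were matched to symbols and transcripts with GENCODE release M21 on GRCm38, which named 49056 of 49315 rows. In R 4.3.3, edgeR 4.0.16 filtered low genes (filterByExpr, at least 10 counts and 15 in total), scaled by TMM and tested knockout over wild type by quasi-likelihood. All 14508 genes left, with all 32 genes described here among them, shared 1 Benjamini-Hochberg adjustment, and the threshold was 0.05. The biological coefficient of variation (24.2%) and the median SE of a log2 fold change (0.23) set the precision. Levels per length used the shortest RefSeq-linked principal transcript with the best support. DESeq2 1.42.0 and limma 3.58.1 (voom), other scalings and filters, left-out hearts, a replicate block, a term for Y-linked reads and a length offset were tried as alternatives. The test was checked on simulated data.

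The 32 genes and all lists were chosen with earlier results of these data known. Genes named with every heart's value were the highest per length, smallest p and largest and smallest fold change of each complex or unit, with the Atp5g genes, Cycs and Atpif1 always named, and the 2 smallest p of each list; Nrf1, Gabpa, Esrra, Ppargc1a, Cox7b, Atp5e, Myl2 and Myh6 were named after their values were seen. Sequences are from RefSeq. Reads carry no molecular identifiers.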

Additional observations from a re-analysis of the deposited data

How the results depend on the processing

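The limits are those of 3 hearts per group at these spreads: a difference of 1.5-fold could be left out for 4 of the 32 genes with all hearts. The count was 23 without knockout heart 2 and wild-type heart 3. Those hearts were left out because these same counts set them apart, and they were the 2 highest for 31 of the 32 genes. The shorter intervals follow from that choice and do not show greater precision. No gene of the 32 was called under any alternative run. The median log2 fold change of the 32 genes was -0.0964 with DESeq2 size factors, -0.0813 with library size alone, -0.0887 without mitochondrial reads, -0.073 with no filter, -0.0845 with a filter of 1 CPM in 3 libraries, -0.0966 in DESeq2, -0.112 in limma-voom, -0.30 with a term for Y-linked reads, -0.12 with knockout heart 2 and wild-type heart 3 as a level of their own, -0.21 with both left out and -0.0709 with the length offset. All 32 genes were negative in each of these except the length offset, where Cox6c was at 0.0124. Over all genes the calls were 2 with knockout heart 2 and wild-type heart 3 left out and 0 to 1 with single hearts left out, 0 being without knockout heart 3.

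Leaving out single hearts moved the median between -0.45 and 0.17 and the number of negative genes between 4 and 32, and the sign of 30 genes turned in at least 1 of the 6 fits; Uqcrc1 and Atp5d kept theirs. The log2 fold changes then ran from -0.082 to 0.011 for Atp5a1, -0.19 to 0.035 for Atp5b, -0.50 to 0.18 for Atp5c1, -0.73 to 0.44 for Atp5e, -0.44 to 0.21 for Atp5f1, -0.48 to 0.052 for Atp5g1, -0.31 to 0.15 for Atp5g2, -0.40 to 0.12 for Atp5g3, -0.53 to 0.18 for Atp5h and -0.42 to 0.24 for Atp5j. They ran from -0.57 to 0.18 for Atp5j2, -0.58 to 0.23 for Atp5k, -0.41 to 0.23 for Atp5l, -0.59 to 0.21 for Atp5mpl, -0.59 to 0.22 for Atp5o, -0.30 to 0.034 for Atp5s, -0.29 to 0.083 for Cox5a, -0.48 to 0.093 for Cox5b, -0.45 to 0.30 for Cox6c and -0.62 to 0.36 for Cox7b. The rest ran from -0.57 to 0.28 for Cox7c, -0.37 to 0.039 for Cyc1, -0.28 to 0.17 for Cycs, -0.53 to 0.29 for Uqcr10, -0.52 to 0.16 for Uqcr11, -0.36 to 0.15 for Uqcrb, -0.45 to 0.051 for Uqcrc2, -0.32 to 0.079 for Uqcrfs1, -0.63 to 0.26 for Uqcrh and -0.55 to 0.23 for Uqcrq. The cause was not tested.

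Deviations of same-numbered hearts from their group means had correlations over genes of 0.18, -0.65 and -0.40. Knockout heart 2 and wild-type heart 3, which stood apart and carry different numbers, had a correlation of 0.68. Since these hearts weigh on every group mean, the correlations cannot tell whether the numbers pair the samples. With the replicate block the median of the 32 genes was -0.13, 0 of them and 1 of all genes were called. The Atp5g shares kept their sign in the alternatives run. With the longest principal transcript the difference was -0.479 percentage points for Atp5g1, 0.337 for Atp5g2 and 0.142 for Atp5g3. With a window of 150 bases before the start the NRF1 core and ETS counts stayed at 7 of 25 and the cAMP response element was found in 1.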
